A study of Homo sapiens with 12 samples.

Results

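Notch receptors, Notch ligands, the Fringe genes that modify the receptors and target genes of the pathway were followed in leukemia cells treated with cytarabine (Ara-C), a nucleoside drug that blocks DNA synthesis, with and without stromal cells. The 10 genes were NOTCH1, NOTCH2, NOTCH3, DLL1, JAG1, LFNG, MFNG, RFNG, HES1 and DTX1, chosen by the gene symbol that the scanner tables give each probe. They had 17 of the 48800 probes on the array. The detection p sets a probe against the negative controls of its array, and probes with a value under 0.01 on 3 or more arrays were kept. With this filter 10 of the 17 probes and 8 of the 10 genes passed, among 11183 genes tested. NOTCH3 and DTX1 were not detected on any array and were not tested.

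The Reh line comes from an acute lymphoblastic leukemia of B-cell precursors. There were 3 arrays each, described as independent triplicates, for 4 groups: Ara-C for 48 h together with HS5 (HS-5) stromal cells, Ara-C for 48 h together with HS stromal cells, Ara-C alone for 48 h, and no treatment. HS-5 is a human bone marrow stromal line, HS is not described further, and neither the dose of Ara-C nor the way Reh cells were separated from the stroma is given in the sources used here. No group had stroma without Ara-C, so the stroma comparisons describe Ara-C-treated cells only.

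Notch receptors are transmembrane proteins that are cut after a ligand of the Delta-like or Jagged family on a neighbouring cell binds them. The freed intracellular part enters the nucleus, joins the DNA-binding protein RBPJ and activates targets such as HES1. Fringe enzymes add N-acetylglucosamine to O-fucose on the receptors in the Golgi, which changes how they respond to Delta-like and Jagged ligands. In blood formation, Notch signalling is known for directing lymphoid progenitors towards the T lineage, and bone marrow stroma is a known source of Notch ligands.

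On the 12 arrays, between 13064 and 14898 probes per array were detected and arrays of a group correlated at r = 0.992 to 0.994 across genes, which are not independent replicates. Of 17 listed B-lineage precursor markers, 11 were measured, CD79A and DNTT among them, while PAX5, VPREB1, CD22, BLNK and CD34 were detected on no array. Of 32 listed stromal fibroblast markers, 19 were detected on no array, including COL1A1, COL1A2, COL3A1, FN1 and CXCL12. Of the 12 measured, 2 were called higher and 5 lower with HS against Ara-C alone, next to 21.6% and 20.5% of all tested genes. The higher ones were COL5A1, at 7.11 with HS against 6.08 with Ara-C alone (log2 intensity, limma adjusted p = 0.00042), and PDGFRB, by 0.49 on the log2 scale (limma adjusted p = 0.0331). This is the same direction as LFNG and NOTCH1. Both markers were also detected on all arrays with Ara-C alone, and COL5A1 on all untreated arrays, at 6.41. Whether stromal RNA adds to these values was not tested. The lower ones were SPARC, VIM, S100A6, LGALS1 and TIMP1. With Ara-C against untreated cells 8 were called higher and 2 lower, next to 25.5% and 26.3% of all tested genes. Among those called higher, SPARC and PDGFRB were detected on no untreated array and entered the tests through treated groups, where they were high. COL6A1, also among them, was detected on no Ara-C-alone and no untreated array. These genes add no independent support to the count. The summed signal of these 32 markers was 30937 to 33842 with HS5, 18948 to 21367 with HS, 30917 to 34164 with Ara-C alone and 15235 to 17602 in untreated cells. Most of this linear sum came from VIM, LGALS1 and TIMP1. Untreated cells, which had no stroma, also read high for them, at 13.1, 11.6 and 11.4 (log2 intensity). The sum is therefore no measure of stromal RNA. Of the 11 measured B-lineage precursor markers, 9 were called higher and 0 lower with HS against Ara-C alone, next to 21.6% and 20.5% of all tested genes. With Ara-C against untreated cells 1 was called higher and 7 lower, next to 25.5% and 26.3%. MME, in both counts, was detected on no Ara-C-alone and no HS5 array and entered through the groups where it was high. The summed signal of the 17 B-lineage precursor markers was 3557 to 4051 with HS5, 7223 to 7426 with HS, 4506 to 4800 with Ara-C alone and 7171 to 7638 in untreated cells. The groups that were high for this B-lineage sum, HS and untreated, were also those high for RFNG and MFNG, and its part in the results below was not tested. Of 16 T and NK cell markers 6 were measured, CD3D, CD4, NKG7 and PRF1 on all 12 arrays, and CD2, CD3E, CD3G, CD5 and CD7 were detected on no array. All 6 were called higher with Ara-C against untreated cells, where 25.5% of all tested genes were. CD8A, 1 of the 6, was detected on no untreated array. It entered the tests through the treated groups, where it was high, and adds no independent support to the count. NKG7 was higher by 7.19-fold (limma adjusted p = 2.05e-09) and GZMA by 6.97-fold (limma adjusted p = 3.39e-10). With HS against Ara-C alone 5 were called lower, where 20.5% of all tested genes were. GZMA, among these, was detected on no HS array. The summed signal of the 16 was 7790 to 8556 with HS5, 4371 to 5310 with HS, 6754 to 7483 with Ara-C alone and 3180 to 3378 in untreated cells. That of 12 macrophage and monocyte markers was 6071 to 6157 with HS5, 3435 to 4070 with HS, 4891 to 5381 with Ara-C alone and 1905 to 2087 in untreated cells, with CD163, MSR1, MARCO, VCAN and MRC1 detected on none. These last sums were lowest in untreated cells, as DLL1 was, and their part was not tested. In bulk RNA, fewer cells of a type and less RNA per cell cannot be told apart. A single chip carried the 12 arrays, and as the 3 of a group were neighbours on it, chip position cannot be told apart from group.

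Promoter windows of HES1 and LFNG are shown because HES1 is the target gene among the members that was measured, LFNG had the largest change of the 8 tested members with HS, and both windows hold the core letters bound by RBPJ. The windows come from RefSeq (GRCh38.p14), are given for the plus strand, and run from 250 bases before the gene start. They end just before the start, except that the upstream LFNG window runs to its first transcribed base. Capitals mark TGGGAA, or TTCCCA where it reads on the other strand.
HES1 (chr3:194135898-194136147): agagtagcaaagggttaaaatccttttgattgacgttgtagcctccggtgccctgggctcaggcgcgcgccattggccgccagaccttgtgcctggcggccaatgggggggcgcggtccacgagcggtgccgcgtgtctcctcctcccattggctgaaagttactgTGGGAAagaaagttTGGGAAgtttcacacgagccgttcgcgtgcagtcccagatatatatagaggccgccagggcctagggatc
LFNG, upstream start (chr7:2512279-2512529): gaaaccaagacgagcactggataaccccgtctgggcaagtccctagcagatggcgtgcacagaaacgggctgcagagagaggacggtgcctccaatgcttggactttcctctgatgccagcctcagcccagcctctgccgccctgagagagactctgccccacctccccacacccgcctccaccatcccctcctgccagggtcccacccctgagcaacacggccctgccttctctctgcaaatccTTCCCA
LFNG, downstream start (chr7:2517613-2517862): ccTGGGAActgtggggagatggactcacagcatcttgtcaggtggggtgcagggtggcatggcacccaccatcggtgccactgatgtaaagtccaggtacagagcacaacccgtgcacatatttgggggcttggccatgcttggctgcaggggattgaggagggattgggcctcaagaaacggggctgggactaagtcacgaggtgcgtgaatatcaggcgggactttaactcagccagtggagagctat

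The HES1 window held TGGGAA at positions -84 to -79 and again at -70 to -65 relative to the start, the first of them as part of the longer form GTGGGAA. The upstream LFNG window held TTCCCA at positions -5 to 1, the last being the first base of the transcript, and the downstream window held TGGGAA at -248 to -243. The search covered 300 bases, 250 before and 50 after each start, on both strands. No TGGGAA was found in the windows of NOTCH1, NOTCH2, NOTCH3, JAG1 or RFNG. In all, 7 of the 10 members matched this table, and DLL1, MFNG and DTX1 did not. Among 35116 promoter windows of the same length, 24.0% held TGGGAA, 6.25% held GTGGGAA, 7.26% held the E box CACGTG and 38.0% held the N box CACNAG. The HES1 window also held 4 N boxes, the motif that HES proteins bind, 1 of them after the start. Each GTGGGAA match is also a TGGGAA match. A match describes the letters in the window and not a bound site.

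The receptors were measured with 1 usable probe each. NOTCH1 (probe ILMN_1729161), a receptor required for T-lineage commitment, was detected on all 12 arrays. Its normalized log2 intensities were 9.92, 9.79 and 10.02 with HS5, 10.24, 10.14 and 10.45 with HS, 9.88, 9.76 and 9.85 with Ara-C alone, and 9.89, 9.89 and 9.81 in untreated cells. The 3 HS arrays lay above the other 9, which overlapped one another. NOTCH2 (ILMN_2405297), a receptor known for marginal zone B cell development, had log2 intensities of 6.74, 6.83 and 6.32 with HS5, 6.80, 7.19 and 7.24 with HS, 6.71, 6.68 and 6.60 with Ara-C alone, and 6.47, 6.35 and 6.59 in untreated cells. Its HS arrays lay above those of Ara-C alone and untreated cells but overlapped those of HS5. The other 2 NOTCH2 probes were detected on no array. NOTCH3 (ILMN_1658926) read between 4.50 and 5.04 on the log2 scale over the 12 arrays, within the range of undetected probes.

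Of the ligands, DLL1 (ILMN_1743373), a Delta-like ligand, had log2 intensities of 9.51, 9.78 and 9.62 with HS5, 9.16, 9.29 and 9.53 with HS, 9.56, 9.45 and 9.40 with Ara-C alone, and 8.90, 8.98 and 8.79 in untreated cells. Every array with Ara-C read above every untreated array, and the 3 groups given Ara-C overlapped. JAG1 (ILMN_1691376), a Jagged ligand and itself a known Notch target, ran the other way. It had 8.37, 8.55 and 8.42 with HS5, 8.58, 8.58 and 8.77 with HS, 8.35, 8.41 and 8.16 with Ara-C alone, and 9.37, 9.35 and 9.11 in untreated cells. The untreated arrays stood above all 9 treated arrays.

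LFNG (ILMN_1663080), the lunatic Fringe gene, had log2 intensities of 7.20, 6.60 and 6.89 with HS5, 8.59, 8.18 and 8.02 with HS, 7.16, 7.17 and 7.08 with Ara-C alone, and 6.41, 6.39 and 6.61 in untreated cells. The HS arrays stood above all others, and the lowest HS5 array fell just under the highest untreated array. The other 2 LFNG probes were detected on no array. RFNG (ILMN_1802603), the radical Fringe gene, read 8.75, 8.81 and 8.60 with HS5, 9.80, 9.51 and 9.60 with HS, 8.50, 8.73 and 8.73 with Ara-C alone, and 9.45, 9.44 and 9.34 in untreated cells. These values fell into a high pair of groups, HS and untreated, and a low pair, HS5 and Ara-C alone, with no overlap between the pairs. MFNG (ILMN_1764577), the manic Fringe gene, was dim. It read 5.18, 5.05 and 4.95 with HS5, 6.25, 6.20 and 6.10 with HS, 5.41, 5.18 and 5.76 with Ara-C alone, and 6.41, 6.52 and 5.60 in untreated cells. It was detected on 0 HS5, 3 HS, 1 Ara-C and 2 untreated arrays, of 3 each. MFNG entered the tests only through HS and untreated cells, where it was high. Its calls, counted with those of the members below, therefore add no independent support.

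Of the targets, HES1 (ILMN_1710284), a transcriptional repressor and direct Notch target, had log2 intensities of 6.31, 6.44 and 6.73 with HS5, 6.47, 6.17 and 6.58 with HS, 5.92, 5.92 and 5.59 with Ara-C alone, and 6.92, 6.69 and 6.60 in untreated cells. The Ara-C arrays stood below the other 9, and 1 of them was not detected. DTX1 (ILMN_1689002), a ubiquitin ligase of the Deltex family and a target in lymphoid cells, read between 4.45 and 5.66 with no array detected.

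**Figure D1:**
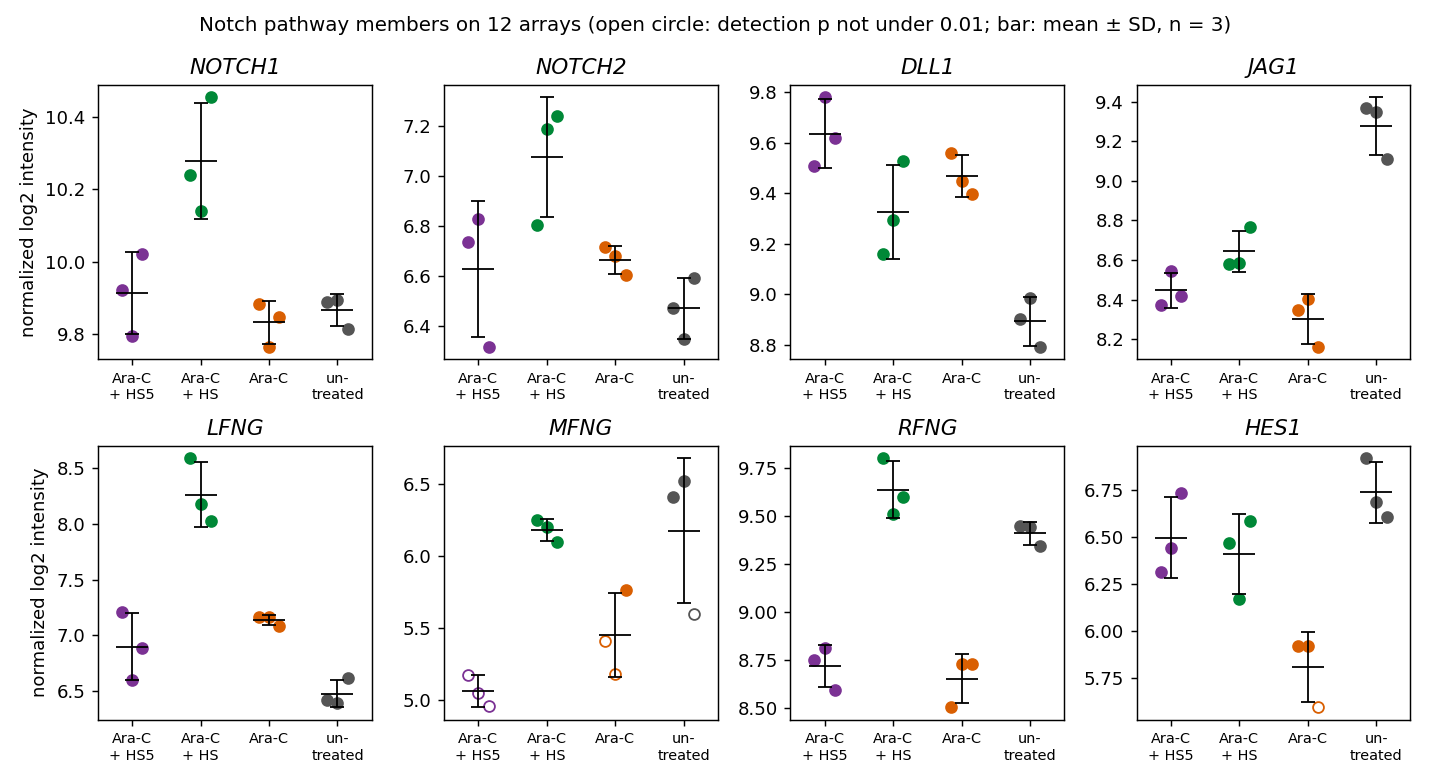
Normalized log2 intensity (vertical axis, scaled for each gene) of the 8 tested members on 12 arrays, by group, with the mean and SD of 3 arrays as bars and open circles for arrays on which the probe was not detected. HS stands apart from the other groups for NOTCH1 and LFNG, Ara-C alone is lowest for HES1, and untreated cells are highest for JAG1 and lowest for DLL1.

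The comparison of Ara-C with untreated cells asked what the drug changed when no stroma was present. The ligands moved apart, JAG1 falling and DLL1 rising, and so did the Fringe genes, with LFNG rising while RFNG and MFNG fell. HES1 fell. In the limma model across all genes with Benjamini-Hochberg adjustment, 6 of the 8 tested members were called at an adjusted p under 0.05, 2 higher and 4 lower. Of all tested genes 51.8% were called, 25.5% higher and 26.3% lower. When arrays were aligned by their medians in place of quantile normalization, 76.4% of the calls over all genes were higher, against 49.2% with quantile normalization. The median difference over the 8 members was -0.38 on the log2 scale, against -0.028 over all tested genes.

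JAG1 averaged 8.30 ± 0.13 with Ara-C and 9.28 ± 0.15 in untreated cells (log2 intensity, SD, n = 3 each), a log2 difference of -0.97 (SE 0.10, limma adjusted p = 5.95e-06). This is a signal 1.96-fold lower with Ara-C. HES1 was 1.90-fold lower, at 5.81 ± 0.19 with Ara-C against 6.74 ± 0.16 in untreated cells (log2 difference -0.93, SE 0.14, limma adjusted p = 0.000141). RFNG was 1.69-fold lower, with a log2 difference of -0.76 (SE 0.10, limma adjusted p = 5.05e-05), and MFNG had a log2 difference of -0.73 (SE 0.20, limma adjusted p = 0.00901), its arrays overlapping between the groups. The undetected MFNG arrays in both groups leave the size of that fall uncertain. DLL1 was 1.49-fold higher with Ara-C (log2 difference 0.58, SE 0.11, limma adjusted p = 0.000751), and LFNG 1.59-fold higher (0.67, SE 0.16, limma adjusted p = 0.00328).

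Neither receptor passed the test. NOTCH1 had a log2 difference of -0.034 with a 95% interval of -0.25 to 0.18, and that of NOTCH2 was 0.20 with an interval of -0.11 to 0.50. With median alignment, NOTCH1 read 0.17 and NOTCH2 0.48, the second with limma adjusted p = 0.0148. That scaling moved the median of all tested genes in this comparison to 0.19, and relative to it NOTCH1 stayed lower and NOTCH2 higher.

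The comparison of Ara-C with HS stroma against Ara-C alone asked what HS cells changed in drug-treated leukemia cells. Both receptors, JAG1, all 3 Fringe genes and HES1 were higher with HS, and the Fringe genes LFNG and RFNG had the largest folds among the members. Of the 8 tested members 7 were called, all higher, where 42.1% of all tested genes were called, 21.6% higher and 20.5% lower. With median alignment 39.6% of the calls over all genes were higher, against 51.3% with quantile normalization. The median log2 difference was 0.52 over the members and 0.011 over all tested genes. The Ara-C arrays are shared with the preceding comparison, so a low or high set of Ara-C arrays moves a gene in opposite directions in the 2 comparisons.

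LFNG averaged 8.26 ± 0.29 with HS and 7.14 ± 0.047 with Ara-C alone (log2 intensity, SD, n = 3 each), which is 2.18-fold higher (log2 difference 1.13, SE 0.16, limma adjusted p = 0.00011). RFNG averaged 9.64 ± 0.15 with HS and 8.65 ± 0.13 with Ara-C alone, 1.98-fold higher (0.98, SE 0.10, limma adjusted p = 1.08e-05). The groups did not overlap for either gene. The 2 dimmer kept RFNG probes, ILMN_1661427 and ILMN_1759732, were detected on no Ara-C and no HS5 array and on 2 HS arrays each, and they passed the filter only through HS and untreated cells, so they add no independent support. MFNG was higher by 0.73 (SE 0.20, limma adjusted p = 0.0113), but it too passed the filter only through HS and untreated cells. Without Ara-C replicate 2 its log2 difference was 0.60 with limma adjusted p = 0.0523.

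HES1 was 1.51-fold higher with HS than with Ara-C alone, at 6.41 ± 0.21 against 5.81 ± 0.19 (log2 difference 0.60, SE 0.14, limma adjusted p = 0.00504). NOTCH1 was 1.36-fold higher, at 10.28 ± 0.16 with HS against 9.83 ± 0.060 with Ara-C alone (0.45, SE 0.099, limma adjusted p = 0.00286). For both genes all HS arrays lay above all Ara-C arrays. NOTCH2 (0.41, SE 0.14, limma adjusted p = 0.0337) and JAG1 (0.34, SE 0.10, limma adjusted p = 0.0193) were higher by smaller margins. The NOTCH2 call ended under 9 of the 22 alternatives tried, including leaving out any of the Ara-C arrays, with log2 differences from 0.30 to 0.55, and the JAG1 call ended under 4, with values from 0.27 to 0.39. DLL1 did not pass, with a log2 difference of -0.14 and a 95% interval of -0.38 to 0.098.

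**Figure D2:**
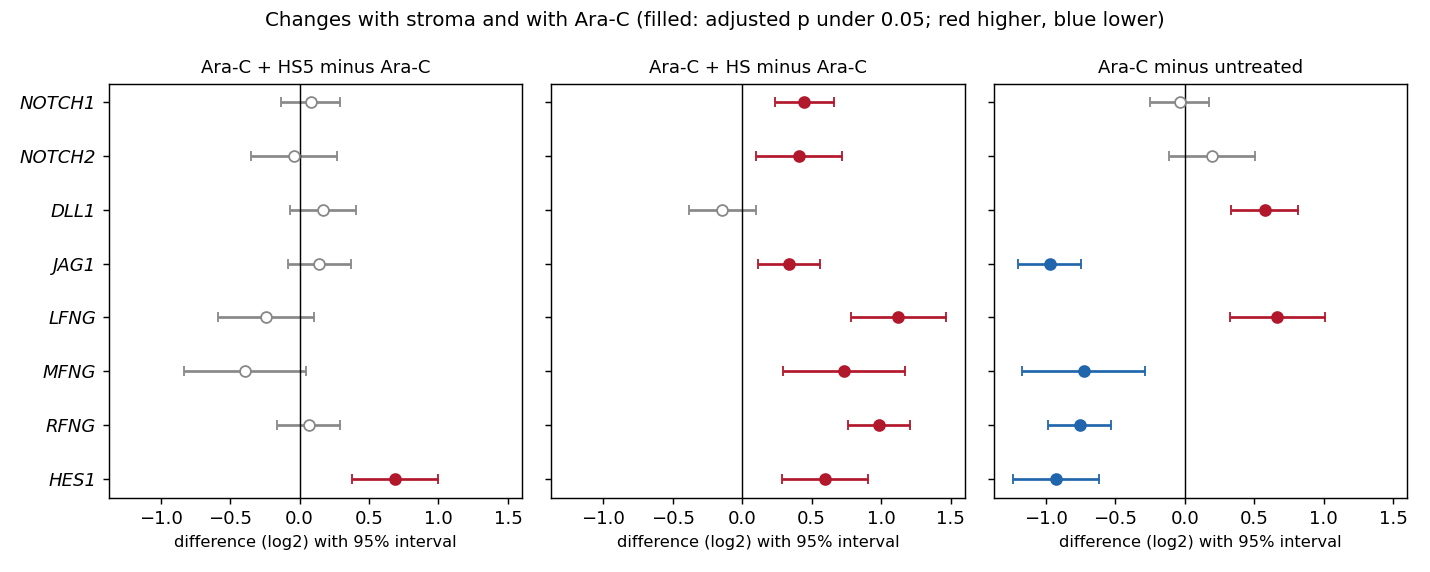
Log2 difference (horizontal axis) with its 95% interval from the limma model for the 8 tested members in 3 comparisons, with filled points where the adjusted p over all genes was under 0.05. Of the 8 genes, 1 is filled for HS5 against Ara-C alone, 7 for HS against Ara-C alone and 6 for Ara-C against untreated cells.

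The same question for HS5 stroma gave 1 called member. HES1 was 1.61-fold higher with HS5 than with Ara-C alone, at 6.50 ± 0.22 against 5.81 ± 0.19 (log2 difference 0.69, SE 0.14, limma adjusted p = 0.0451), and the groups did not overlap. This call lay close to the threshold and ended under 16 of the 22 alternatives, among them leaving out any array of either group, with log2 differences from 0.41 to 0.78 and adjusted p from 0.0297 to 1. Of all tested genes 0.903% were called, 0.528% higher and 0.376% lower, which is 101 genes, while 1505 had an unadjusted p under 0.05. Of the calls over all genes 34.3% were higher with median alignment, against 58.4% with quantile normalization. The median log2 difference over the 8 members was 0.073, and over all tested genes it was -0.0046.

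The remaining 7 tested members did not pass. The log2 difference was 0.081 for NOTCH1, with a 95% interval of -0.13 to 0.29, and -0.038 for NOTCH2, with an interval of -0.35 to 0.27. For the ligands it was 0.17 for DLL1 (-0.071 to 0.41) and 0.14 for JAG1 (-0.084 to 0.37). The JAG1 interval takes in the 0.34 seen with HS, while those of NOTCH1 and NOTCH2 end below the 0.45 and 0.41 seen with HS. Among the Fringe genes it was -0.24 for LFNG (-0.59 to 0.10) and 0.065 for RFNG (-0.16 to 0.29), intervals that do not reach the differences of 1.13 and 0.98 seen with HS. MFNG was not detected on any HS5 array and on 1 Ara-C array, so no fold is given for it.

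HS5 and HS were compared directly, within Ara-C-treated cells. The Fringe genes and both receptors were lower with HS5, DLL1 was higher, and JAG1 and HES1 did not pass. In all, 6 of the 8 tested members were called, 1 higher and 5 lower, where 43.2% of all tested genes were called, 20.9% higher and 22.3% lower. The median log2 difference was -0.41 over the members and -0.0087 over all tested genes.

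LFNG was 2.58-fold lower with HS5, at 6.90 ± 0.30 against 8.26 ± 0.29 with HS (log2 difference -1.37, SE 0.16, limma adjusted p = 1.98e-05). RFNG was 1.89-fold lower, at 8.72 ± 0.11 with HS5 against 9.64 ± 0.15 with HS (-0.92, SE 0.10, limma adjusted p = 1.61e-05). MFNG, undetected on all HS5 arrays, was at least 1.35-fold lower with HS5, against the lowest level that counted as detected. The limma adjusted p of 0.000672 belongs to the fitted difference of -1.12, which uses undetected values, and not to this bound. The HS5 and HS arrays of LFNG, RFNG and MFNG did not overlap.

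NOTCH1 was 1.29-fold lower with HS5 than with HS (-0.37, SE 0.099, limma adjusted p = 0.00891), with no overlap. NOTCH2 was 1.37-fold lower (-0.45, SE 0.14, limma adjusted p = 0.0214), with overlapping arrays, and this call ended under 5 of 22 alternatives, among them leaving out HS replicate 2 or 3 or HS5 replicate 3, with values from -0.59 to -0.30. DLL1 was 1.24-fold higher (0.31, SE 0.11, limma adjusted p = 0.0373), also with overlap, and its call ended under 9, with values from 0.23 to 0.41. The log2 difference of HES1 was 0.089 with a 95% interval of -0.22 to 0.40, and that of JAG1 was -0.20 with an interval of -0.42 to 0.029.

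Against untreated cells, LFNG and DLL1 were higher and JAG1 was lower with either stroma, while RFNG and MFNG were lower with HS5, and NOTCH1 and NOTCH2 were higher with HS. With HS5, 5 of the 8 tested members were called, 2 higher and 3 lower, where 56.1% of all tested genes were called, 27.5% higher and 28.6% lower. With HS, 5 of 8 were called, 4 higher and 1 lower, where 45.1% of all tested genes were called, 23.3% higher and 21.8% lower. The 2 comparisons share the untreated arrays, and the share of the tested members called was 62.5% in both. With median alignment the share of higher calls over all genes was 62.3% for HS5 and 75.4% for HS, against 49.0% and 51.6% with quantile normalization.

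LFNG was 1.34-fold higher with HS5 than in untreated cells (log2 difference 0.42, SE 0.16, limma adjusted p = 0.0362) and 3.46-fold higher with HS than in untreated cells (1.79, SE 0.16, limma adjusted p = 1.87e-06). The HS5 call ended under 6 of the 22 alternatives, among them leaving out HS5 replicate 1, with a value of 0.27. The HS call stayed under all 22. DLL1 was 1.67-fold higher with HS5 (0.74, SE 0.11, limma adjusted p = 8.76e-05) and 1.35-fold higher with HS (0.43, SE 0.11, limma adjusted p = 0.00652). JAG1 stayed below untreated cells with both stromas, by 1.78-fold with HS5 (-0.83, SE 0.10, limma adjusted p = 1.99e-05) and by 1.55-fold with HS (-0.63, SE 0.10, limma adjusted p = 0.000328).

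RFNG was 1.61-fold lower with HS5 than in untreated cells (-0.69, SE 0.10, limma adjusted p = 9.22e-05), and MFNG was at least 1.35-fold lower with HS5. The limma adjusted p for MFNG, 0.000437, belongs to its fitted difference of -1.12 and not to this bound. With HS, RFNG had a log2 difference of 0.23 from untreated cells, with a 95% interval of 0.0024 to 0.45 (limma adjusted p = 0.092), and MFNG one of 0.0065, with an interval of -0.43 to 0.45. The MFNG value with HS changed sign under 4 alternatives, to as low as -0.28 without untreated replicate 3. NOTCH1 was called higher with HS (0.41, SE 0.099, limma adjusted p = 0.00436), as was NOTCH2 (0.61, SE 0.14, limma adjusted p = 0.00393). With HS5 neither receptor passed, at 0.046 (-0.17 to 0.26) for NOTCH1 and 0.16 (-0.15 to 0.47) for NOTCH2. HES1 did not pass against untreated cells with HS5, at -0.24 (-0.55 to 0.071), or with HS, at -0.33 (-0.64 to -0.017, limma adjusted p = 0.0796).

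**Figure D3:**
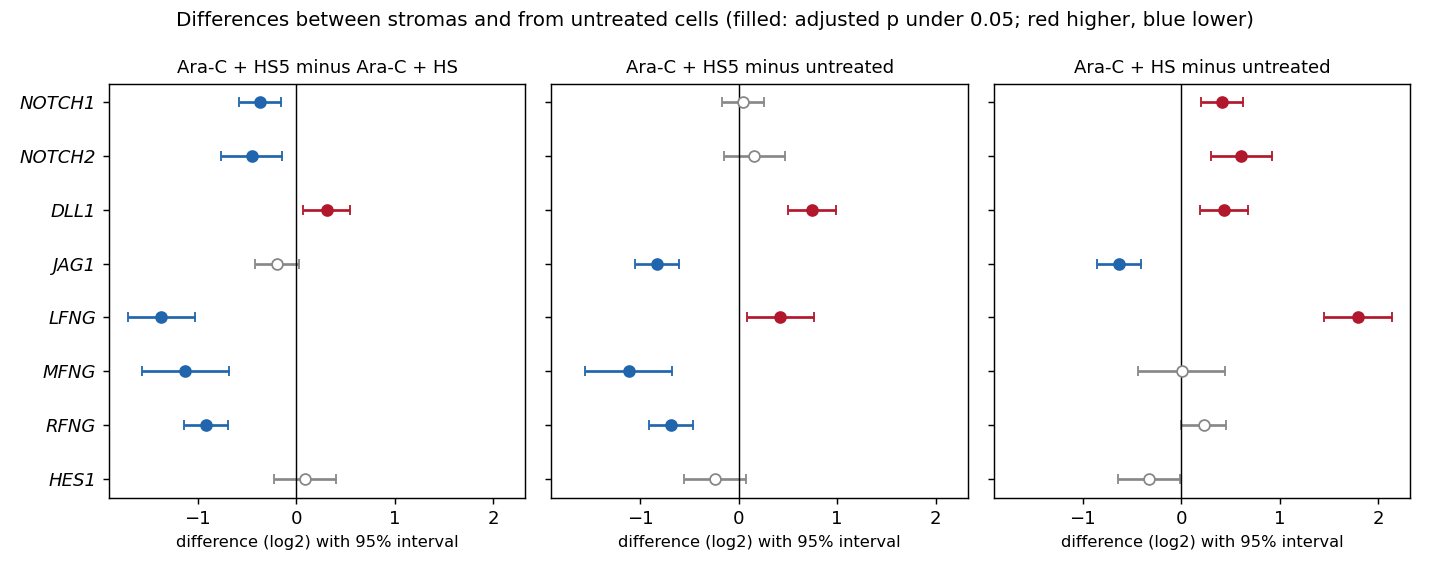
Log2 difference (horizontal axis) with its 95% interval from the limma model for the 8 tested members between HS5 and HS and for each stroma group against untreated cells, with filled points where the adjusted p over all genes was under 0.05. LFNG, MFNG and RFNG lie left of 0 between HS5 and HS, and JAG1 lies left of 0 against untreated cells with both stromas.

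Genes whose level followed a member most closely over the 12 arrays were found by the root mean square difference of their log2 values. Each gene was first centred on its own mean. The candidates were 8321 tested genes with a current symbol, without the members and uncharacterised names, and were not chosen by how much they varied. A member was placed if its group means spanned at least 0.5 on the log2 scale. For RFNG the nearest were TKT, the transketolase of the pentose phosphate pathway, at 0.099, FAF1 at 0.11 and EIF2S3, a subunit of a translation initiation factor, at 0.11, where the median over all candidates was 0.49. For LFNG they were GAA, the lysosomal acid alpha-glucosidase, at 0.21, ECHDC2 at 0.22 and HSD17B6 at 0.23, against a median of 0.74. GAA averaged log2 intensities of 6.12 with HS5, 7.54 with HS, 6.43 with Ara-C alone and 6.15 in untreated cells, so HS stood apart for it as for LFNG.

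For JAG1 the nearest were LONP1, a mitochondrial protease, at 0.10, UTP18, a factor in making ribosomes, at 0.10 and SLC5A6, a vitamin transporter, at 0.11, against a median of 0.44. For DLL1 they were ZNF821 at 0.083, SRD5A1, a steroid reductase, at 0.10 and ABCC5, an efflux transporter, at 0.10, against a median of 0.39. NOTCH2 lay nearest to SPN, the leukosialin gene, at 0.12, BNIP3L at 0.13 and CCDC15 at 0.13, against a median of 0.38. MFNG lay nearest to PIK3CB, EIF4B and TKT at 0.22, 0.22 and 0.23, against a median of 0.59. All these points share the same 12 arrays and the same group differences, so the closeness is a description with no test. NOTCH1 varied too little between groups to be placed. For HES1 the nearest gene by this measure is not given, and the next were SNORD73A at 0.20 and PSAT1, an enzyme of serine synthesis, at 0.21, against a median of 0.44.

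Of 95 further genes listed for the pathway, 61 were measured. No other listed receptor or ligand passed the filter: NOTCH4, DLL3 and DLL4 were detected on no array, JAG2 on 1 and DLK1 on 2. The targets HES5, HEY1, HEY2 and NRARP were detected on none. The 3 main comparisons were HS5 against Ara-C alone, HS against Ara-C alone and Ara-C against untreated cells. Of the 61 measured genes, 20 were called higher and 11 lower with Ara-C against untreated cells, where 51.8% of all tested genes were called, 10 and 10 with HS against Ara-C alone, where 42.1% were, and 1 and 0 with HS5 against Ara-C alone, where 0.903% were. With Ara-C and with HS these shares are near or below those of all genes. Between HS5 and HS, 9 were called higher and 20 lower, where 43.2% of all genes were called. Against untreated cells, 18 were higher and 12 lower with HS5 (56.1% of all genes called), and 17 were higher and 6 lower with HS (45.1%). The median log2 difference over the 61 genes was 0.075 with Ara-C, 0.054 with HS and -0.029 with HS5 in the main comparisons, next to -0.028, 0.011 and -0.0046 over all tested genes.

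Among the 5 genes of receptor glycosylation and maturation, KTELC1 (POGLUT1), the O-glucosyltransferase of Notch, was lower with Ara-C than in untreated cells (log2 difference -0.61, SE 0.096, limma adjusted p = 0.00015). With HS against Ara-C alone it was higher (0.31, SE 0.096, limma adjusted p = 0.0182), a call that ended under 7 of 22 alternatives (0.19 to 0.41) and that its second kept probe did not share (0.35, limma adjusted p over all kept probes = 0.0829). POFUT1, the O-fucosyltransferase that makes the sugar Fringe enzymes extend, did not pass in any of the 3 main comparisons, with values of 0.17 for HS5 against Ara-C, 0.36 for HS against Ara-C and -0.15 for Ara-C against untreated cells. The proteases ADAM10 and ADAM17, which make the first cut after ligand binding, did not pass in these comparisons either.

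The complex that frees the intracellular part is gamma-secretase. Of its 6 subunit genes, 1 was called higher and 1 lower with Ara-C against untreated cells, next to 51.8% of all tested genes called. With HS against Ara-C alone 0 were called higher and 2 lower, next to 42.1%. APH1B averaged 8.12 ± 0.13 with Ara-C against 7.32 ± 0.25 in untreated cells (log2 intensity, SD, n = 3 each), a difference of 0.80 (SE 0.13, limma adjusted p = 0.000175). With HS it averaged 7.22 ± 0.13, a log2 difference of -0.90 from Ara-C alone (limma adjusted p = 0.000118). PSEN2, a catalytic subunit, was lower with Ara-C than in untreated cells (-0.66, SE 0.18, limma adjusted p = 0.00708). The median-aligned scaling ended this PSEN2 call, at -0.38. PSENEN was lower with HS than with Ara-C alone (-0.46, SE 0.15, limma adjusted p = 0.0273), a call that ended under 6 of 22 alternatives (-0.63 to -0.29).

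RBPJ, the DNA-binding core of the pathway, did not pass in the 3 main comparisons on its brightest probe, with log2 differences of -0.12 for HS5 against Ara-C, 0.14 for HS against Ara-C and -0.0021 for Ara-C against untreated cells. Its 3 kept probes disagreed: ILMN_2316844, detected on 6 arrays, was lower with Ara-C than in untreated cells (-0.72, limma adjusted p over all kept probes = 0.000245). CREBBP, a histone acetyltransferase that acts as a coactivator, was higher with Ara-C than in untreated cells (0.57, SE 0.11, limma adjusted p = 0.000854). With HS against Ara-C alone, the listed coactivator genes GCN5L2 and SNW1 moved apart. GCN5L2 was higher (0.38, SE 0.098, limma adjusted p = 0.00753) and SNW1 lower (-0.30, SE 0.11, limma adjusted p = 0.041). Of the 13 measured corepressor genes, 4 were higher and 2 lower with Ara-C, next to 25.5% and 26.3% of all tested genes. FHL1 was 2.77-fold higher (1.47, SE 0.20, limma adjusted p = 4.70e-05), HDAC1 1.48-fold higher (0.56, SE 0.11, limma adjusted p = 0.000927), and NCOR1 1.56-fold lower (-0.64, SE 0.13, limma adjusted p = 0.000905).

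Of 16 measured genes of receptor trafficking, ubiquitination and turnover, 8 were higher and 3 lower with Ara-C than in untreated cells, next to 25.5% and 26.3% of all tested genes. AAK1, a kinase of clathrin adaptors and among those called higher, was fitted 1.91-fold higher (0.93, SE 0.14, limma adjusted p = 0.000104). It was detected on 1 of the 3 untreated arrays and on every array with Ara-C. AAK1 thus entered the tests through the groups where it was high, and the size of its difference is uncertain. DTX3L, a Deltex-family ligase, was 1.85-fold higher with Ara-C (0.89, SE 0.17, limma adjusted p = 0.000667) and 1.60-fold lower with HS than with Ara-C alone (-0.68, SE 0.17, limma adjusted p = 0.00606). NUMB, an inhibitor of Notch, was 1.21-fold higher with Ara-C (0.27, SE 0.079, limma adjusted p = 0.011). WWP2 was 1.43-fold lower with Ara-C (-0.52, SE 0.11, limma adjusted p = 0.0018).

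Of 15 measured target genes other than HES1, 6 were higher and 4 lower with Ara-C, next to 51.8% of all tested genes called, and 4 higher and 3 lower with HS against Ara-C alone, next to 42.1%. Many of these genes answer to other pathways as well. Among the HES and HEY genes, HEYL was fitted higher with Ara-C than in untreated cells (0.80, limma adjusted p = 0.000572). HEYL was detected on no untreated array, so the size is uncertain. It entered the tests through the treated groups, where it was high, and its call adds no independent support. HES4 was fitted higher with HS than with Ara-C alone (1.03, limma adjusted p = 0.000954). It was detected on HS arrays only, through which it entered the tests. HES6 did not pass in the 3 main comparisons. MYC, a growth regulator, had log2 differences of -0.29 with HS5, 0.74 with HS and -1.36 with Ara-C in the 3 main comparisons, the second and the third called. CDKN1A, a cell cycle inhibitor also induced by p53, had differences of 0.18, -2.25 and 4.62 in the same order, the second and the third called. Those of CCND1 were 0.054, 0.15 and 1.72, only the third called (limma adjusted p = 1.22e-07).

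BCL3, an atypical inhibitor of NF-kappaB that Notch is known to regulate, was the 1 further pathway gene called with HS5 against Ara-C alone. It averaged 6.42 ± 0.11 with HS5 and 5.50 ± 0.15 with Ara-C (log2 intensity, SD, n = 3 each; fitted difference 0.92, SE 0.10, limma adjusted p = 0.000847). It was detected on 3 of the 3 HS5 arrays, 1 HS array, 1 Ara-C array and 0 untreated arrays, so it entered the tests through HS5, where it was high, and the size of the difference is uncertain. With HS against Ara-C alone its difference was 0.16 (SE 0.10, limma adjusted p = 0.207), and the direct fitted difference between HS5 and HS was 0.75 (SE 0.10, limma adjusted p = 5.89e-05). The HS5 call stayed under 21 of the 22 alternatives and ended where a change of over 1.5-fold was required. As these alternatives reuse the same arrays, they add no independent support for a gene that entered through the group where it was high.

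**Figure D4:**
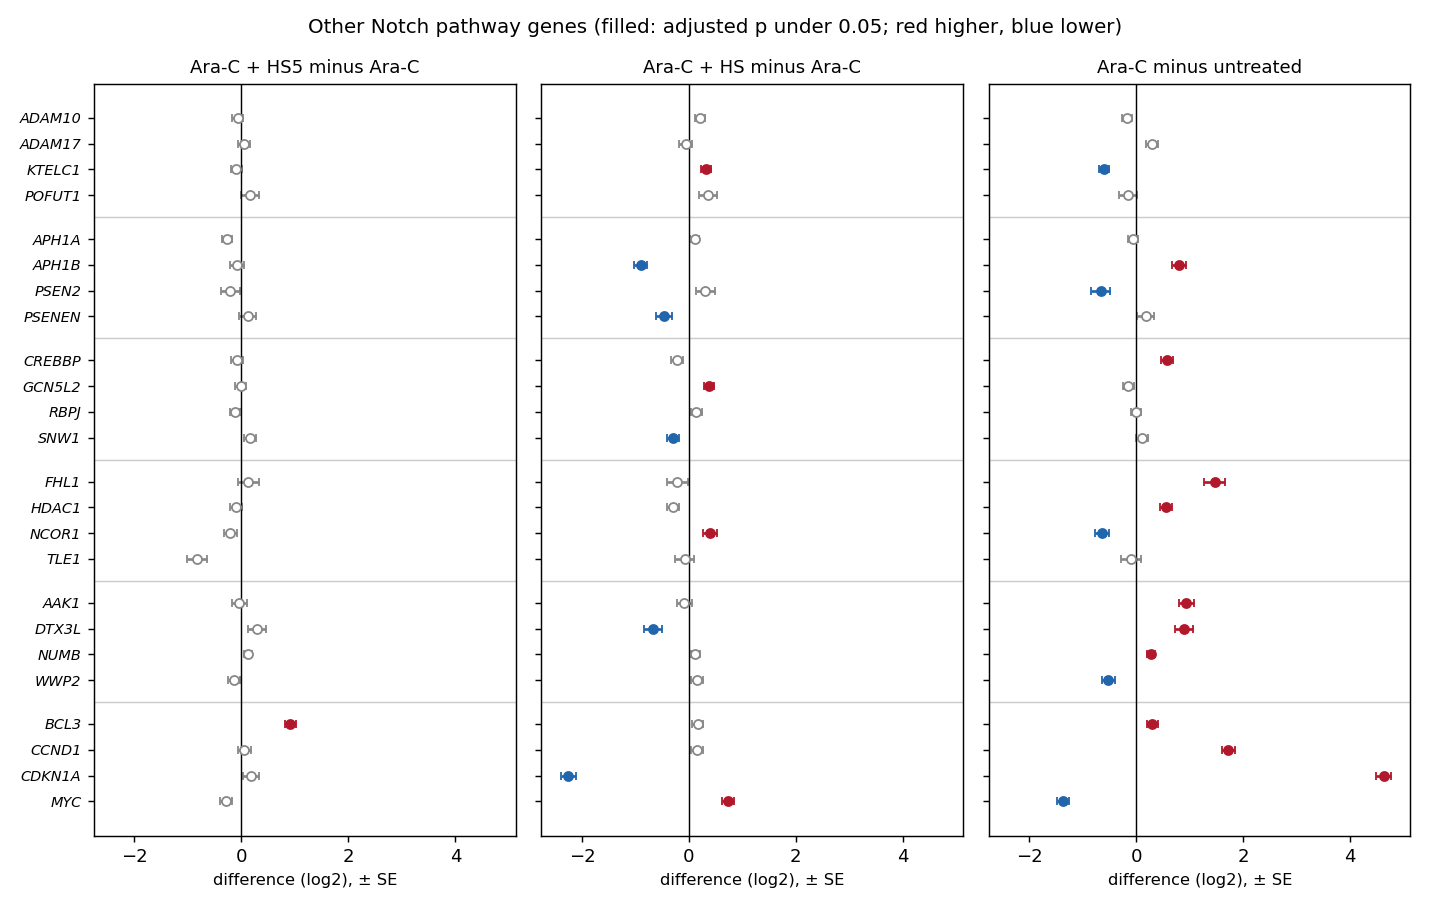
Log2 difference (horizontal axis) with its SE for 24 named genes of the pathway lists in 3 comparisons, with filled points where the adjusted p over all genes was under 0.05; the grey lines part, from the top, maturation, gamma-secretase, coactivators, corepressors, trafficking and targets. BCL3 is the 1 filled point for HS5, and CDKN1A and MYC lie on opposite sides of 0 for HS and for Ara-C.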

How the data were processed

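Per the labels' protocols, total RNA was amplified to biotinylated cRNA and hybridised to HumanHT-12 v3 arrays. Each deposited scanner table gives, per the file headers, the average bead intensity of a probe, not normalized between arrays, with its detection p-value. The values deposited by the authors in the series table are on the log2 scale and equal the quantile-normalized signals to within 0.000167. That table served to check the scanner files only. R 2.9.2 is named in the submitters' processing notes.

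The neqc function (limma 3.58.1, R 4.3.3) normalized the signals by normexp with the detection p, an offset of 16, quantile normalization and log2. Probes with detection p under 0.01 on at least 3 arrays were kept, and each symbol was represented by its brightest kept probe. One model (lmFit, eBayes, 8 residual degrees of freedom) gave 6 contrasts. Tests were 2-sided with Benjamini-Hochberg adjustment over 11183 genes, and intervals are not adjusted. An "at least" fold sets a group undetected on all arrays at the lowest detected level. All 10 members are given, and up to 4 genes per pathway list with the smallest adjusted p over the 6 contrasts. HEYL, HES4 and HES6 are given besides, as further HES and HEY genes. Gene names are those of the scanner tables. Precision is limited by the number of arrays.

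The members and lists were chosen with earlier results of these data known. The procedure was tested on simulated data.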

Additional observations from a re-analysis of the deposited data

Results flagged for a closer look

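For 6 members the effect of HS5 differed from that of HS under Ara-C by the direct limma contrast, in which 43.2% of all tested genes were called. The effect of HS5 minus that of HS was -1.37 on the log2 scale for LFNG, -1.12 for MFNG, -0.92 for RFNG, -0.45 for NOTCH2, -0.37 for NOTCH1 and 0.31 for DLL1. As both effects are taken against the same Ara-C arrays, each value equals the direct difference between the 2 stroma groups. MFNG was undetected with HS5, so its value as fitted is no bound. The values for NOTCH2 and DLL1 came from overlapping arrays.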

How the results depend on the processing

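In all, 22 alternatives were run for the 48 member differences (8 genes, 6 contrasts). Without the requirement of a change over 1.5-fold, 951 of 1008 values kept their direction and their side of the threshold. Of the others, 44 lost a call, 1 gained one and 12 changed sign. Some alternatives changed only the spread, such as leaving out an array of a group not compared or fitting a replicate block. In these the direction could not change, so the total overstates how far direction was tried. With that requirement the members called numbered 1 for Ara-C, 1 for HS and 0 for HS5 in the main comparisons, 1 for HS and 0 for HS5 against untreated cells, and 1 between HS5 and HS. The genes called in all were then 1075, 492, 1, 643, 1304 and 591 in the same order, and the further pathway genes 5, 2, 0, 4, 8 and 4.

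The HS5 count against Ara-C alone was 0 with median alignment, no detection filter, every kept probe, only the arrays compared and the replicate block, and 0 to 1 with 1 array left out. All genes called in that contrast ranged from 28 to 50 without 1 of its own arrays, and were 205 without background correction, 267 with an intensity trend and robust spread, and 62 with only the arrays compared. The further pathway genes called there numbered 2 without background correction, with median alignment, with only the arrays compared, with an intensity trend and robust spread, and without HS replicate 2 or 3.

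Same-numbered arrays correlated at r = -0.046 to 0.025 in their deviations from group means. These values gave no sign of pairing by number, but they cannot exclude it for some genes. The replicate block left 58 genes called with HS5 against Ara-C alone and 0 members.

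None of the values that changed sign was called. Median alignment gave NOTCH1 0.17 with Ara-C and -0.036 with HS5, and RFNG -0.033 with HS5. The median of all genes became 0.19 with Ara-C and -0.11 with HS5, and 0.13 with HS and 0.091 with HS5 against untreated cells. Relative to that median, no member turned. MFNG for HS against untreated cells was -0.0097 without background correction. With 1 array left out, it ran from -0.28 to 0.18, HES1 between HS5 and HS from -0.031 to 0.18, NOTCH1 for HS5 against untreated cells from -0.0082 to 0.11, and NOTCH2 and RFNG with HS5 against Ara-C alone from -0.14 to 0.12 and from -0.0096 to 0.13. The causes were not tested. The chip could not be a block, as all arrays lay on 1. MFNG near the detection level limits every value given for it.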
